A study of Mus musculus with 2 samples.

Results

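The immunoglobulin heavy-chain isotype genes and the joining chain were followed in single cells of mouse pancreatic tumours. The members were taken by symbol from the deposited gene list. They are Ighm, Ighd, Ighg3, Ighg1, Ighg2b, Ighg2c, Igha and Jchain, 8 of the 32285 genes, and all 8 were found under the symbols and gene identifiers of the annotation used below. Ighe, the constant gene of IgE, was read beside them. One library came from KPPC mice given vehicle and one from KPPC mice given takinib, an inhibitor of the kinase TAK1, at 50 mg/kg. All mice were 6 weeks old and were treated for 14 days. KPPC is a genetically engineered model of pancreatic cancer. The labels do not spell out its alleles, its Cre driver or the number of mice behind each library, and both groups share whatever the model carries. The dissociated tumour suspension was sequenced by droplet methods with no sort or gate stated.

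An antibody's isotype is set by the constant gene of its heavy chain. Naive B cells make IgM and IgD from the same transcript start by alternative splicing, and class switch recombination then replaces that constant region with one of the downstream IgG, IgE or IgA genes. Plasma cells secrete the antibody at a high rate. The J chain joins the units of polymeric IgA and IgM, which is the form that the epithelial receptor carries across mucosal surfaces, whereas IgG is secreted as a monomer.

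On the GRCm38 assembly (GENCODE M21) the heavy-chain constant genes lie on the minus strand of chromosome 12 and are annotated as immunoglobulin constant genes. Read in the direction of transcription, Ighm (ENSMUSG00000076617, 113418558 to 113422730) comes first. Ighd (ENSMUSG00000104213, 113406604 to 113416324) follows it. Then come Ighg3 (ENSMUSG00000076615, 113356224 to 113361232), Ighg1 (ENSMUSG00000076614, 113325240 to 113330523), Ighg2b (ENSMUSG00000076613, 113302965 to 113307933) and Ighg2c (ENSMUSG00000076612, 113285325 to 113288932). Ighe (ENSMUSG00000087642, 113269260 to 113273248) and Igha (ENSMUSG00000095079, 113254830 to 113260236) close the array. Jchain (ENSMUSG00000067149) is a protein-coding gene of chromosome 5, at 88519809 to 88527891 on the minus strand.

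The part of the heavy chain that the J chain binds is the tail of the secreted form. The last 60 coding bases of the annotated secreted transcripts are shown because the level of the J chain differs between isotypes in the cells below. They are written 5′ to 3′ from GRCm38, minus strand, with the codon before the last amino acid in capitals.
Ighm, chr12:113420867-113420926: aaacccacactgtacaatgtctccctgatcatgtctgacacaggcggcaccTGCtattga
Igha, chr12:113258768-113258827: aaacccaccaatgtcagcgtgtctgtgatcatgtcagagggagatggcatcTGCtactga
Ighg3, chr12:113359665-113359724: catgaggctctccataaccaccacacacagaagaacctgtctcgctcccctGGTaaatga
Ighg1, chr12:113328976-113329035: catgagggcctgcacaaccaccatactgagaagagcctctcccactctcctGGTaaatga
Ighg2b, chr12:113306389-113306448: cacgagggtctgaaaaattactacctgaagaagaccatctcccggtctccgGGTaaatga
Ighg2c, chr12:113287389-113287448: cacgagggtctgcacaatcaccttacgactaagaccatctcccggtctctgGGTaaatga
Ighm and Igha carry a cysteine codon at this place, and the 4 IgG genes carry a glycine codon. That tail cysteine is the residue known to take part in the bonds of polymeric IgM and IgA. The IgG genes are close copies of each other. Ighg2b and Ighg2c were 85.9% identical over 1007 aligned coding bases with a shared run of up to 78 bases, and the other IgG pairs were 75.4% to 77.5% identical with runs of 28 to 41 bases. Reads from such shared stretches could be placed on either gene, so the split within IgG is less certain than that between IgM, IgA and IgG. Ighm and Igha were 57.6% identical, with a longest shared run of 12 bases.

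After filters and doublet removal 9579 vehicle cells (42080924 UMIs) and 25183 takinib cells (119024454 UMIs) were kept, with a median of 3559 and 2871 UMIs per cell. A UMI is a counted molecule, not scaled by transcript length. The libraries differed in ways that the treatment labels do not name. The median mitochondrial share was 8.71% of UMIs in vehicle cells and 1.78% in takinib cells. The vehicle library held cells of both sexes, 3100 with Y-linked UMIs and no Xist and 1076 with Xist and no Y-linked UMI, while the takinib library held 14271 cells with Xist and 0 with a Y-linked UMI. The libraries shared 400 cell barcodes. With 1 library per condition there is no replicate error. The 95% intervals given in square brackets cover counting error only, no p-value was computed, and treatment, animals, sex and processing batch cannot be told apart in any difference between the libraries.

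Cells were grouped without the immunoglobulin genes or Jchain, so the members did not define the classes. The plasma-like cells numbered 30 in the vehicle library, 0.313% [0.211, 0.447] of kept cells, and 151 in the takinib library, 0.600% [0.508, 0.703]. Mzb1, a chaperone of antibody-secreting cells, had 2795 CPM (CPM are counts scaled to 1e+06 UMIs of the class) in vehicle and 2978 CPM in takinib cells, and Pax5, the B cell identity factor, 0 and 0.754 CPM. The B-like cells numbered 200 (2.09%) and 665 (2.64%). They held the antigen receptor subunit Cd79a at 2054 and 2106 CPM and no UMI of the plasma cell receptor Tnfrsf17. Median depth was 5390.5 and 7754 UMIs in plasma-like cells and 1534.5 and 1341 UMIs in B-like cells. A further cluster with B cell markers held 564 takinib cells and 2 vehicle cells. Its summed level of 9 neutrophil markers was 70792 CPM, and it was kept apart from the B-like class. The same 9 markers reached 298 CPM in vehicle and 4494 CPM in takinib plasma-like cells (0 to 42 and 0 to 702 UMIs per cell). In vehicle cells 5 of the 9 were detected, with Cxcr2, Ly6g, Mmp8 and Ngp at 0, and in takinib cells 9 of 9. In B-like cells they reached 87.3 and 4099 CPM (0 to 3 and 0 to 223 UMIs per cell), with 6 of 9 detected in vehicle, where Csf3r, Ly6g and Ngp were at 0, and 9 of 9 in takinib. The part of these counts in the results below was not tested.

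Most vehicle plasma-like cells were IgA cells, whereas IgM cells were the most frequent kind in the takinib library. Each plasma-like cell was given the isotype that held over 50% of its heavy-chain UMIs, from at least 10 of them, with Ighm and Ighd counted as a single unswitched class. All 30 vehicle cells and 150 of 151 takinib cells received an isotype, and the remaining takinib cell had 4 heavy-chain UMIs. IgA was the isotype of 19 vehicle cells, 63.3% [43.9, 80.1], and of 50 takinib cells, 33.3% [25.9, 41.5]. The unswitched class held 2 vehicle cells, 6.67% [0.818, 22.1], and 69 takinib cells, 46% [37.8, 54.3]. Neither pair of counting intervals overlapped. IgG cells were 9 of 30 in the vehicle library, 30% [14.7, 49.4], and 31 of 150 in the takinib library, 20.7% [14.5, 28.03], and these intervals overlapped.

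**Figure D1:**
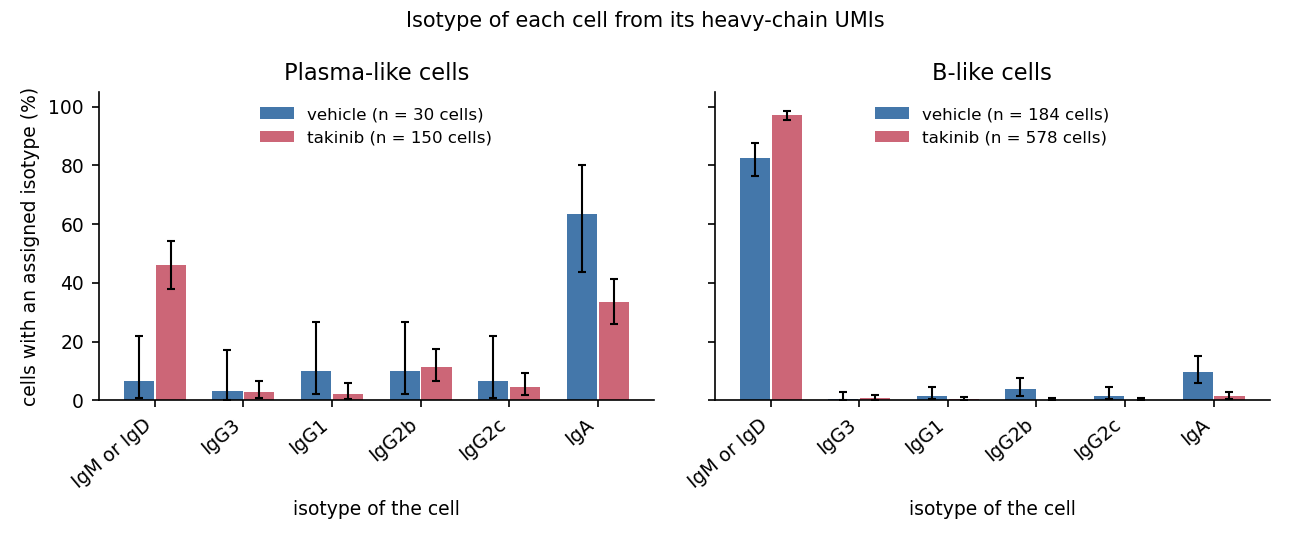
Share of cells with an assigned isotype (y axis, %) by isotype (x axis) in the vehicle and takinib libraries, for plasma-like cells on one panel and B-like cells on the other; bars are shares of cells and lines exact Clopper-Pearson 95% intervals. IgA cells make up 63.3% of vehicle and 33.3% of takinib plasma-like cells, and unswitched cells 82.6% and 97.2% of B-like cells.

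Within IgG, the vehicle library had 3 IgG1, 3 IgG2b, 2 IgG2c and 1 IgG3 cells, and the takinib library 17 IgG2b, 7 IgG2c, 4 IgG3 and 3 IgG1 cells. IgG2b was the most frequent subclass of the takinib library. No IgE cell was seen, 0 of 30 and 0 of 150, which allows a share of up to 10% and 2%, and each library held 1 Ighe UMI in all of its barcodes. The isotypes of vehicle cells split by sex-linked genes rested on few cells. The 4 cells with Xist alone were 2 IgA, 1 IgG2b and 1 IgG2c, and the 12 with Y-linked UMIs alone were 6 IgA, 5 IgG and 1 unswitched. IgA cells were therefore present in both.

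Nearly every plasma-like cell expressed a single isotype. The assigned isotype held at least 99% of heavy-chain UMIs in 26 of 30 vehicle and 138 of 150 takinib cells, and at least 95% in 28 and 147. A second isotype above 5% was seen in 5 cells. In a vehicle IgG2b cell with 1358 heavy-chain UMIs, 176 (12.96%) were unswitched. In a vehicle IgG2c cell 70 of 467 (14.99%) were Igha. The 3 takinib cells, an IgA, an IgG2b and an IgG3 cell, had 5.41%, 6.52% and 8.12% of their 1516, 399 and 468 heavy-chain UMIs from a second isotype. A doublet, free RNA and 2 transcripts in 1 cell cannot be told apart here. Heavy-chain UMIs ran from 147 to 1838 per vehicle cell (median 786) and from 4 to 2406 per takinib cell (median 928). They were a median of 15.3% and 10.3% of the cell's UMIs, and all immunoglobulin genes together a median of 51.0% and 54.0%.

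**Figure D2:**
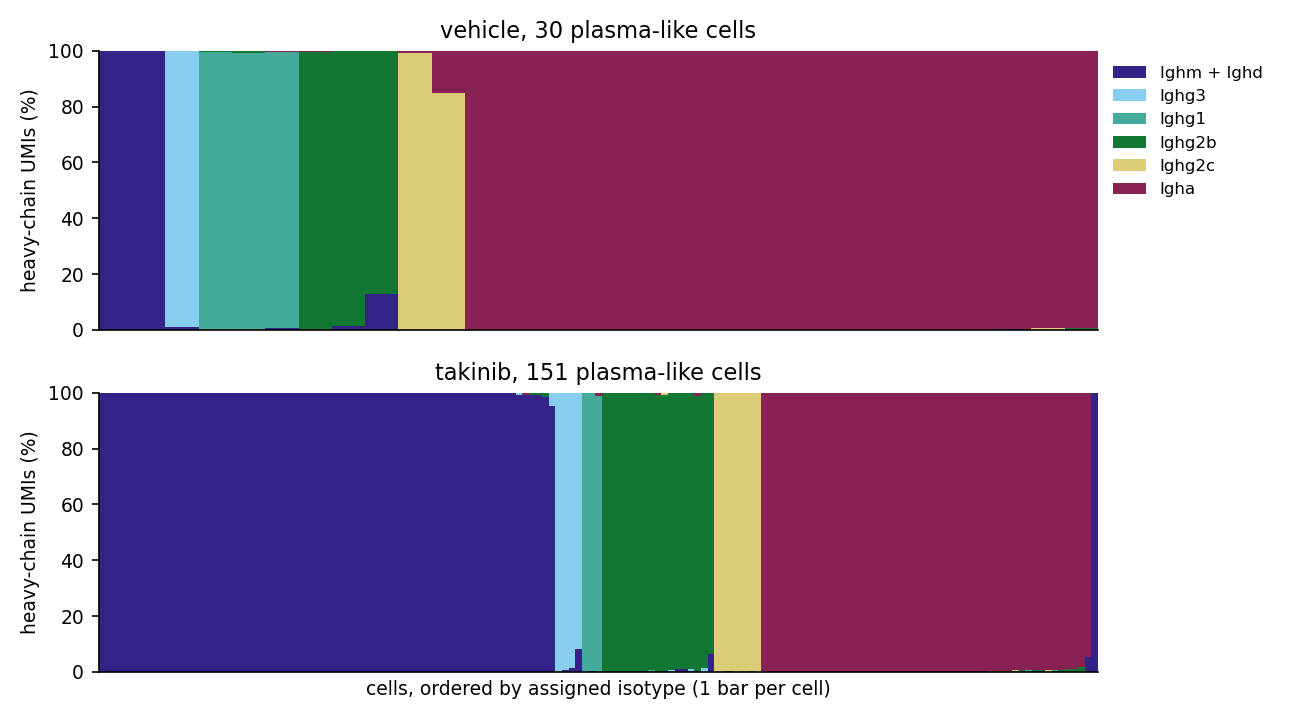
Heavy-chain constant gene UMIs of each plasma-like cell (1 bar per cell, x axis) as a share of the cell's heavy-chain UMIs (y axis, %), coloured by isotype and sorted by isotype within each library. Single-colour bars fill most of both panels, 5 cells carry a second isotype above 5%, and the last takinib bar is the cell with no assigned isotype.

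Summed over plasma-like cells, Ighm and Igha differed in the direction of their cell shares, while Ighg2b and Ighg2c did not. IgG2b cells were 10% of vehicle and 11.3% of takinib cells and IgG2c cells 6.67% and 4.67%, against the summed levels given below. A gene is called changed where it is over 2-fold apart between the libraries, among genes with at least 50 summed counts. Of the 1858 such genes 14.5% were over 2-fold higher and 4.95% over 2-fold lower in takinib, with a median log2 ratio over all genes of 0.05. Of the 8 heavy-chain constant genes, 6 reached 50 counts, 1 was over 2-fold higher and 1 over 2-fold lower, with a median log2 ratio of -0.43. Those called shares are of the order of the background.

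In plasma-like cells Ighm stood at 11964 CPM with vehicle and at 40527 CPM with takinib, a log2 ratio of takinib over vehicle of 1.76 [1.70, 1.82]. One vehicle cell held 64.4% of the 2085 vehicle Ighm UMIs, and without the highest cell of each library the log2 ratio was 3.18. Ighd, which plasma cells switch off, had 1 and 8 UMIs. Igha stood at 87525 CPM in vehicle and 43804 CPM in takinib, a log2 ratio of -0.999 [-1.024, -0.973], just short of the 2-fold limit. Igha was the most abundant member in both libraries, ahead of Ighm in takinib by a small margin.

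The IgG genes did not share a direction. Ighg1 stood at 14713 and 3405 CPM, a log2 ratio of -2.11 [-2.18, -2.04], and rested on 3 cells in each library. Ighg2b stood at 20221 and 10712 CPM, a log2 ratio of -0.92 [-0.97, -0.86]. Ighg2c stood at 3896 and 6845 CPM, a log2 ratio of 0.81 [0.70, 0.93]. Ighg3 stood at 2387 and 2474 CPM, a log2 ratio of 0.05 [-0.10, 0.20], but 1 vehicle cell held 415 of the 416 vehicle UMIs, and without the highest cell of each library the log2 ratio was 7.98. With every cell thinned to 1000 UMIs the log2 ratios of Ighg2b, Ighg2c and Ighg3 were -0.077, 0.013 and -0.89, so of the IgG genes only Ighg1 (-1.95) was past 2-fold in both readings. Jchain, by contrast, was nearly level in summed counts, 27647 CPM in vehicle and 29256 CPM in takinib, a log2 ratio of 0.08 [0.04, 0.13].

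Behind that near-equal total, the level of the J chain differed between isotypes. In the takinib library IgA cells held 49062 CPM of Jchain [48441, 49688], unswitched cells 22855 [22451, 23264] and IgG cells 9009 [8673, 9354]. Jchain was thus 2.15-fold [2.1003, 2.194] higher in IgA than in unswitched cells, 5.45-fold [5.23, 5.67] higher in IgA than in IgG cells, and 2.54-fold [2.43, 2.65] higher in unswitched than in IgG cells. Per cell, Jchain made up 1.05% to 9.49% of UMIs in IgA cells (median 4.62%), 0 to 5.88% in unswitched cells (median 1.91%) and 0.0566% to 4.001% in IgG cells (median 0.628%). The ranges overlapped while the medians fell in that order.

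The vehicle library gave the same order for IgA over IgG. Its IgA cells held 37770 CPM of Jchain [36607, 38960] and its IgG cells 14184 [13212, 15210], a ratio of 2.66 [2.47, 2.88]. Per cell, Jchain made up 0.408% to 7.81% of UMIs in vehicle IgA cells (median 3.81%) and 0.543% to 3.56% in IgG cells (median 1.19%). The 2 vehicle unswitched cells held 6 and 29 Jchain UMIs, 2713 CPM in all, which was below the vehicle IgG cells and so did not repeat the place of the takinib unswitched cells between IgA and IgG.

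Read per heavy-chain UMI, the difference had the same order in the takinib library. The median was 0.385 Jchain UMIs per heavy-chain UMI in IgA cells, 0.215 in unswitched cells and 0.0645 in IgG cells. Cells with under 0.1 were 3 of 50 IgA cells (6%), 11 of 69 unswitched cells (15.9%) and 25 of 31 IgG cells (80.6%). In the vehicle library the medians were 0.265 in IgA and 0.0959 in IgG cells, and 1 of 19 IgA cells and 5 of 9 IgG cells lay under 0.1. The 2 vehicle unswitched cells had the lowest median, 0.0163, and 2 of 2 lay under 0.1, although Ighm carries the tail cysteine. The J chain was thus low, not absent, in IgG cells of both libraries. A link of its level to the tail cysteine was not tested. By IgG subclass, the takinib medians were 0.588% of UMIs in IgG2b, 0.615% in IgG2c and 0.699% in IgG3 cells, while the 3 IgG1 cells had 0.978%, 3.33% and 4.001%.

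**Figure D3:**
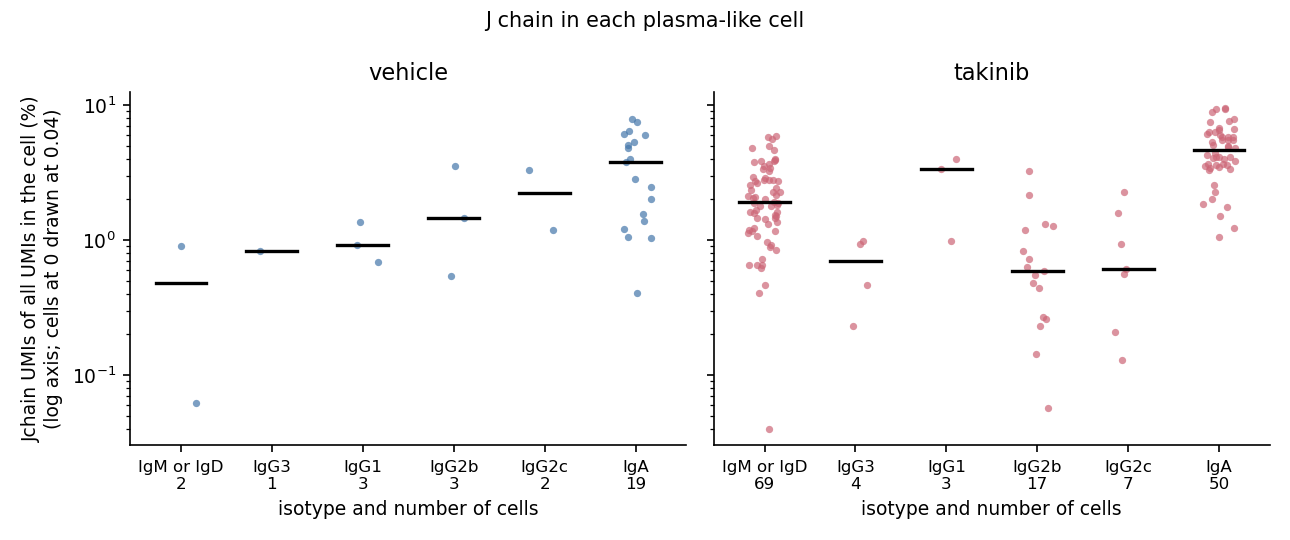
Jchain as a share of the UMIs of each plasma-like cell (y axis, %, log scale, cells with 0 drawn at 0.04) by isotype (x axis) in the vehicle and takinib libraries; points are cells and black lines medians. The takinib medians are 4.62% in IgA, 1.91% in unswitched and 0.628% in IgG cells.

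The 15 folding and secretion genes were compared between isotypes within a library, where the processing is shared. In unswitched over IgG cells of the takinib library 15 were tested, 1 was over 2-fold higher and 0 lower. In IgA over IgG cells 13 were tested, 1 was higher (Txndc5) and 3 lower (Hsp90b1, Pdia6 and Creld2). In unswitched over IgA cells 7 of 15 were higher and 0 lower. In vehicle IgA over IgG cells 8 were tested, 2 were higher (Txndc5 and Hsp90b1) and 0 lower. These counts stand beside the shares over all genes given next, and Txndc5 was the only gene of the list past 2-fold against IgG in the same direction in each of these 3 comparisons. Sec11c and Ssr4, parts of the signal peptidase and translocon, differed by less than 2-fold in all 4. Txndc5, a disulfide isomerase of the endoplasmic reticulum, stood at 1868 CPM in unswitched, 1347 in IgA and 432 in IgG cells of the takinib library. In IgA over IgG cells its log2 ratio was 1.64 [1.37, 1.92], against a median of -0.57 over the 509 genes other than immunoglobulins that reached 50 counts, of which 2.16% were over 2-fold higher and 21.4% over 2-fold lower. In unswitched over IgG cells its log2 ratio was 2.11 [1.85, 2.39], with a median of 0.23 over 847 genes, of which 5.9% were over 2-fold higher and 1.06% lower. In the vehicle library Txndc5 stood at 1192 CPM in IgA and 378 CPM in IgG cells, a log2 ratio of 1.66 [0.98, 2.40]. There 11.1% of 171 genes were over 2-fold higher in IgA cells and 2.34% lower. The low level in IgG cells was therefore seen in both libraries, as for Jchain.

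Mzb1, known as a helper of IgM assembly, had another order. It stood at 4231 CPM in unswitched, 2979 in IgG and 1626 in IgA cells of the takinib library, a log2 ratio of 1.38 [1.26, 1.50] for unswitched over IgA cells. The median of 855 genes in that comparison was 0.85, and 35.3% were over 2-fold higher and 0.936% lower in unswitched cells, so most of that ratio lay in the median shift. Mzb1 did not differ beyond counting error between vehicle IgA (2563 CPM [2267, 2887]) and IgG cells (2589 CPM [2183, 3048]). Hsp90b1, an endoplasmic chaperone, stood at 3960 CPM in unswitched, 4111 in IgG and 2025 in IgA cells of the takinib library but at 7291 in IgA and 3254 in IgG cells of the vehicle library, opposite orders of IgA and IgG. Vpreb3, a partner of the B cell receptor during its assembly, was lower in takinib unswitched than IgA cells, 26.2 against 138 CPM. Its log2 ratio of unswitched over IgA cells was -2.39 [-3.34, -1.55]. Takinib IgG cells held 113 CPM, and IgA and IgG cells did not differ beyond counting error (0.29 [-0.33, 0.93]).

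The receptors that place and sustain plasma cells were set beside the isotypes. Ccr10 and Ccr9, receptors for epithelial chemokines by which IgA plasma cells home to mucosa, had under 50 counts and were chosen after their values were seen. Ccr10 had 24 UMIs in takinib IgA cells, 49.3 CPM [31.6, 73.4], in 16 of 50 cells. It had 0 UMIs in the 69 unswitched cells, with an upper limit of 6.90 CPM, and 1 UMI in the 31 IgG cells. In vehicle IgA cells it had 10 UMIs, 94.6 CPM [45.3, 174], in 7 of 19 cells, against 1 of 9 IgG and 0 of 2 unswitched cells. Median depth was 9131 UMIs in takinib IgA, 7297 in unswitched and 9187 in IgG cells. Elsewhere a Ccr10 UMI was seen in 5 of 4112 takinib (0.122%, median 6214.5 UMIs) and 9 of 4969 vehicle macrophage-like cells (0.181%, median 3929 UMIs), in 0 of 971 takinib and 1 of 806 vehicle epithelial-like cells, and in 3 of 932 takinib (0.322%) and 1 of 221 vehicle T-like cells (0.452%). Of the plasma-like cells with a Ccr10 UMI, 16 of 17 in takinib and 7 of 8 in vehicle were IgA cells.

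Ccr9 stood at 41.1 CPM [25.1, 63.5] in takinib IgA cells (13 of 50 cells), 1.87 CPM in unswitched cells (1 of 69) and 16.6 CPM in IgG cells (3 of 31). In vehicle cells it was seen in 3 of 19 IgA and 2 of 9 IgG cells, 37.8 and 53.9 CPM, so the difference from IgG was not repeated there. T-like cells held Ccr9 too, at 96.9 CPM in vehicle (9.50% of cells) and 19.9 CPM in takinib (3.33%). Cxcr4, the receptor that retains plasma cells in bone marrow, ran the other way in the takinib library, 69.2 CPM [48.8, 95.4] in unswitched, 46.5 [25.4, 78.0] in IgG and 8.22 [2.24, 21.1] in IgA cells. The intervals of IgA cells, which held 4 Cxcr4 UMIs, lay below both others. In unswitched over IgA cells the Cxcr4 log2 ratio was 3.07. The median over 855 genes there was 0.85, and 35.3% were over 2-fold higher. In IgA over IgG cells the Cxcr4 log2 ratio was -2.499. The median over 509 genes there was -0.57, and 21.4% were over 2-fold lower. Part of each Cxcr4 difference thus lay in the median shift. In vehicle cells Cxcr4 was seen in 1 of 19 IgA and 3 of 9 IgG cells. Cxcr4 was also present in 33.4% of takinib B-like, 28.1% of macrophage-like, 24.5% of neutrophil-like, 16.7% of epithelial-like and 16.3% of T-like cells. Tnfrsf17, the survival receptor BCMA, stood at 80.5 CPM in unswitched, 74.0 in IgA and 19.9 [7.31, 43.4] in IgG cells of the takinib library, and at 132 [72.4, 222] and 17.98 in IgA and IgG cells of the vehicle library. IgG cells lay below IgA cells in both, with overlapping intervals in vehicle, where IgG cells held 1 UMI and the 2 unswitched cells 0.

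**Figure D4:**
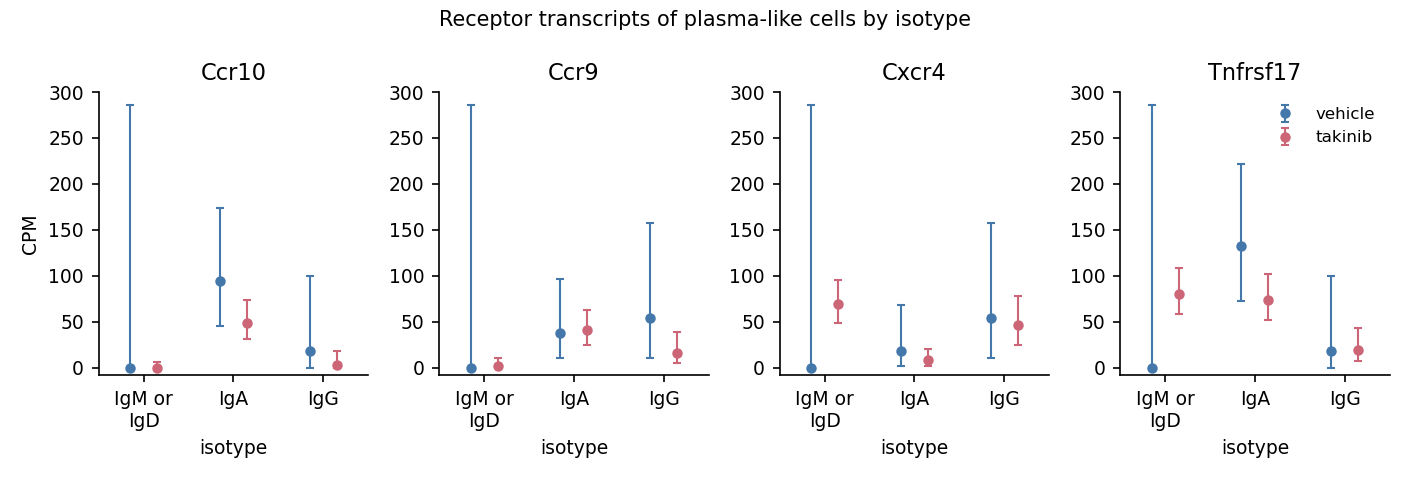
Levels of Ccr10, Ccr9, Cxcr4 and Tnfrsf17 (y axis, CPM) in plasma-like cells by isotype (x axis) in the vehicle and takinib libraries; points are summed levels and lines exact Poisson 95% intervals. Ccr10 is at 49.3 CPM in takinib IgA cells and at 0 in takinib unswitched cells, and Cxcr4 is at 8.22 and 69.2 CPM.

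Across the libraries, the other antibody pathway genes of plasma-like cells are read against the same background, 14.5% of genes higher and 4.95% lower in takinib. Of 10 regulators of the plasma cell state 6 were tested, 1 was higher and 1 lower: the coactivator Pou2af1 stood at 166 CPM in vehicle and 379 in takinib (log2 ratio 1.19), and the repressor Zbtb20 at 126 and 60.3 CPM (-1.07). All 15 folding and secretion genes were tested and 0 passed in either direction, with a median log2 ratio of 0.17 against 0.05 over all genes. Among them Hsp90b1 stood at 6283 and 3278 CPM, a log2 ratio of -0.94. Of 11 immunoglobulin receptors and transporters 2 were tested and 1 was higher, the Fc receptor subunit Fcer1g (log2 ratio 1.78), a gene of myeloid cells too. The neutrophil markers given above moved the same way, and their part was not tested. Of 17 class-switching genes 1 was tested and 0 passed.

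The light chains gave a second reading of the same cells. Of the 4 light-chain constant genes, all tested, 1 was over 2-fold higher and 1 lower in takinib plasma-like cells. Iglc1 stood at 866 and 2581 CPM, a log2 ratio of 1.57 [1.34, 1.82], and Iglc3 at 1130 and 351 CPM, a log2 ratio of -1.69 [-1.93, -1.44], while Iglc2 stood at 1113 and 1043 CPM. A lambda chain led in 13 of 151 takinib plasma-like cells, 8.61% [4.66, 14.3], and in 0 of 30 vehicle cells, which allows a share of up to 10%. Igkc, the kappa constant gene, stood at 73667 CPM in vehicle and 51358 CPM in takinib, a log2 ratio of -0.52 [-0.55, -0.49]. Leading heavy and light V genes could be read in 28 vehicle and 148 takinib cells. The vehicle cells carried 27 V gene pairs, of which 1 was seen in more than a single cell. The takinib cells carried 117 pairs, of which 21 were shared by at least 2 cells and covered 52 cells, and 6 of them spanned more than a single isotype. The most frequent pair, Ighv1-26 with Igkv6-15, led in 9 takinib cells, 4 unswitched, 3 IgA, 1 IgG1 and 1 IgG3. Ighv1-26 led in 17 of 148 takinib cells (11.5%). Of these 11 were unswitched, 4 IgA, 1 IgG1 and 1 IgG3. A shared pair does not show a shared clone, since gene counts do not hold the junction. Only 1 pair was seen in both libraries.

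B-like cells were mainly unswitched in both libraries, and more so in takinib. With a minimum of 2 heavy-chain UMIs, 184 vehicle and 578 takinib cells received an isotype. Unswitched cells were 152 of 184 in the vehicle library, 82.6% [76.3, 87.8], and 562 of 578 in the takinib library, 97.2% [95.5, 98.4]. IgA cells were 18 (9.78% [5.90, 15.02]) and 8 (1.38% [0.599, 2.71]), and IgG cells 14 (7.61% [4.22, 12.4]) and 8 (1.38%). None of these interval pairs overlapped. In the takinib cluster kept apart, 418 of 431 assigned cells were unswitched (97.0%), close to the takinib B-like class. These calls rest on few molecules, and free RNA can add IgA calls: an Igha UMI was also more frequent in vehicle than in takinib T-like cells, as given below. The vehicle share fell to 60.6% when 5 times as many heavy-chain UMIs were required.

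Ighm and Ighd were found together in most B-like cells, a pairing known from mature naive B cells. Both were seen in 112 of 200 vehicle and 399 of 665 takinib cells, Ighm alone in 50 and 192, Ighd alone in 6 and 42, and neither in 32 and 32. The median cell held 3 Ighm UMIs in vehicle and 2 in takinib, with up to 56 and 19, and 1 Ighd UMI in both, with up to 7. Summed, Ighm stood at 2102 CPM in vehicle and 1662 CPM in takinib B-like cells, a log2 ratio of -0.34 [-0.46, -0.22]. Ighd stood at 638 and 784 CPM, a log2 ratio of 0.30 [0.09, 0.51]. Neither passed 2-fold in the full class. With cells of at most 10% mitochondrial UMIs the log2 ratio of Ighm turned to 0.19, and Ighd was over 2-fold higher in takinib. With both B-like clusters joined the log2 ratio of Ighd turned to -0.26.

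Among the 2972 genes tested in B-like cells 7.13% were over 2-fold higher and 1.82% over 2-fold lower in takinib, with a median log2 ratio of 0.08. Of the 4 heavy-chain genes tested there, 1 was higher and 1 lower. Igha was the higher (log2 ratio 1.06), at 826 CPM with vehicle and 1726 CPM with takinib, but a single takinib cell held 1225 of the UMIs, 64.0% of the class total. Without the highest cell of each library the log2 ratio was 0.04. Jchain was higher too, 135 and 667 CPM (log2 ratio 2.31), with 525 UMIs, 70.9%, in 1 takinib cell and a log2 ratio of 0.74 without the highest cells. Ighg2b was the lower, 156 and 35.2 CPM (log2 ratio -2.15 [-2.77, -1.54]). The untested Ighg1 and Ighg2c had 82.1 and 60.9 CPM in vehicle and 20.7 and 9.02 CPM in takinib, and Ighg3 had 47.6 and 35.2 CPM. Summed levels of all 4 IgG genes were lower in takinib B-like cells, Ighg3 within counting error (log2 ratio -0.44 [-1.28, 0.45]). Single vehicle cells held 48.4% of the Ighg1, 34.8% of the Ighg2c and 27.1% of the Ighg2b UMIs, and Ighg1 was seen in similar shares of cells, 2% in vehicle and 2.26% in takinib.

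Leaving out B-like cells with at least 10 heavy-chain UMIs, a choice made after the data were seen, Igha stood at 252 CPM in vehicle and 102 CPM in takinib and Jchain at 115 and 67.9 CPM. Both were then lower in takinib, the reverse of the full class, while Ighm (1810 and 1590 CPM) and Ighd (733 and 816 CPM) kept their order. At an equal depth of 1000 UMIs, Ighm was seen in 74.5% of vehicle and 78.2% of takinib B-like cells and Ighd in 50.0% and 55.6% (as deposited 81% and 88.9%, and 59% and 66.3%). Igha was seen in 20% and 9.17% (as deposited 26.5% and 12.2%) and Jchain in 7.5% and 6.92% (12% and 9.62%). In T-like cells, which make no immunoglobulin, the thinned shares were 17.2% and 15.2% for Ighm, 0.905% and 0.429% for Ighd, 12.2% and 4.61% for Igha and 5.43% and 5.47% for Jchain. Ighm and Ighd therefore stood well above that level in B-like cells. Jchain stood near it. Igha stood above it in both libraries, but its gap between the libraries had about the same size in T-like as in B-like cells, so the IgA calls of B-like cells cannot be told apart from free RNA in that gap.

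Of the other B-like genes, Irf4, a regulator of plasma cell entry, was the 1 of 7 tested regulators over 2-fold higher in takinib, 21.2 and 73.0 CPM (log2 ratio 1.79). Of 8 class-switching genes 0 passed. Of 11 folding genes 2 were lower, Hsp90b1 (log2 ratio -1.08) and Pdia6 (-1.03). Fcer1g was higher, 79.4 and 319 CPM (2.01), as was Cxcr4, 114 and 250 CPM (1.13), both in cells whose neutrophil marker level differed as given above, with that part not tested.

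Outside the B-like and plasma-like classes most members formed a low layer with a few cells standing far above it, and Ighg3 also marked 1 cluster of takinib epithelial-like cells. Cells with at least 10 heavy-chain UMIs were 31 of 9347 in the vehicle library (0.332%) and held 54.6% of its 8170 heavy-chain UMIs there. In the takinib library they were 43 of 23803 (0.181%) and held 66.8% of 23135. With at least 100 such UMIs there were 7 and 21 cells, with median depths of 10053 and 11134 UMIs, and every one had at least 3 of 6 plasma cell markers. No share for other cells of such depth is set beside this count. By isotype the cells with at least 10 were 21 IgA, 7 unswitched, 1 IgG1 and 2 IgG2c in vehicle, and 19 unswitched, 18 IgA, 2 IgG3, 2 IgG1, 1 IgG2b and 1 IgG2c in takinib. Such cells weighed unequally on the classes. They held none of the heavy-chain UMIs of vehicle neutrophil-like, monocyte-like and dendritic-like and takinib T-like and endothelial-like cells, 30.1% in takinib neutrophil-like cells, and 85.8% and 93.5% in takinib macrophage-like and fibroblast-like cells. A vehicle T-like cell with 804 Igha UMIs held 94.7% of Igha in its class.

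Over all cells outside both classes Igha stood at 144 CPM in vehicle and 127 CPM in takinib. Without the cells of at least 10 heavy-chain UMIs, a choice made after the data were seen, it stood at 54.6 CPM [52.4, 56.9] and 20.3 CPM [19.5, 21.1], and was 60.8% and 30.2% of the heavy-chain UMIs. Ighm stood at 25.0 and 26.6 CPM, 27.9% and 39.7% of the heavy-chain UMIs. Jchain stood at 13.5 and 21.1 CPM and Ighd at 4.91 and 3.55 CPM. Ighg3 differed by more, with 5 UMIs (0.121 CPM) in vehicle and 941 UMIs (8.22 CPM) in takinib. Over classes, vehicle Igha ran from 32.6 CPM in epithelial-like cells and 56.0 CPM in those like macrophages to 126 in T-like, 165 in neutrophil-like and 185 in monocyte-like cells. Takinib Igha ran from 6.28 CPM in epithelial-like cells and 14.1 CPM in those like macrophages to 37.2 in neutrophil-like and 44.6 in T-like cells. These cell types are not known to transcribe the gene, and its level was lower in takinib in each of the 5 classes named (19.2 CPM in takinib monocyte-like cells).

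Most of that Ighg3 came from a single cluster of 219 takinib cells, with no vehicle cell, whose leading genes Gkn2, Gkn1 and Muc5ac are known from the mucous surface of the stomach. An Ighg3 UMI was found in 204 of its 219 cells, 93.2% [89.0, 96.1], at 1600 CPM [1490, 1716]. The median cell held 4 Ighg3 UMIs and the highest 10, so the signal was spread over the cluster and did not rest on a few cells. In the other epithelial-like cluster Ighg3 was seen in 4 of 752 takinib cells (0.532%) and 1 of 806 vehicle cells (0.124%), although the median depth there was 11566.5 and 6256.5 UMIs against 1478 UMIs in the Ighg3 cluster. In neutrophil-like cells of the takinib library, with a median of 1879 UMIs, it was seen in 93 of 12683 (0.733%).

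Igkc was nearly as widespread in that cluster, in 203 of 219 cells (92.7%) at 1395 CPM, against 153 of 752 cells (20.3%) of the other takinib epithelial-like cluster. The remaining members had far fewer UMIs there than Ighg3. Ighm had 29 UMIs, Ighd 3, Ighg1 2, Ighg2b 1, Ighg2c 0 and Igha 6, and Jchain had 54 UMIs in 46 cells. Scaled to depth, Jchain stood at 110 CPM and Ighm at 58.8 CPM, above the 24.3 and 11.5 CPM of the other takinib epithelial-like cluster. Ighd and Ighg1 were also higher than there, on those few UMIs, while Igha, Ighg2b and Ighg2c were not. In takinib cells outside the B-like, plasma-like and epithelial-like classes Jchain stood at 76.2 CPM and Ighm at 46.0 CPM. Heavy-chain V genes had 31 UMIs in all, against 789 of Ighg3. Light-chain V genes had 150 UMIs, against 688 of Igkc. Mzb1 had 33 UMIs in 14.2% of the cells, 66.9 CPM. That was above the other takinib epithelial-like cluster (1.39 CPM, 1.73% of cells) and takinib cells outside the B-like, plasma-like and epithelial-like classes (6.42 CPM, 1.37%). Derl3 had 3 UMIs and Tnfrsf17 was at 0, while the epithelial genes Krt8 and Epcam were seen in 86.3% and 54.3% of the cells. The cluster was singled out after its values were seen, and the source of its Ighg3 and Igkc was not tested.

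The vehicle file also holds near-empty barcodes, which can carry free RNA. Whether all of their UMIs are free RNA was not tested. In 376283 barcodes of 1 to 100 UMIs, Igha made up 429 of 614 heavy-chain UMIs, 69.9% [66.1, 73.5], at 658 CPM. In 68150 barcodes of over 100 and up to 500 UMIs, a window added after the data were seen, it made up 16680 of 22957, 72.7% [72.1, 73.2], at 736 CPM, with Ighm at 170, Jchain at 187 and Ighd at 40.6 CPM. Igha thus led the heavy-chain UMIs of these barcodes as it led the vehicle plasma-like cells, where it held 63.3% of cells. In kept vehicle cells outside the B-like and plasma-like classes, without those of at least 10 heavy-chain UMIs, the Igha share was 60.8%, lower than in either window. With those cells included the share was not lower than in either window. The takinib file holds no barcode under 500 UMIs, so its free RNA was not measured.

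**Figure D5:**
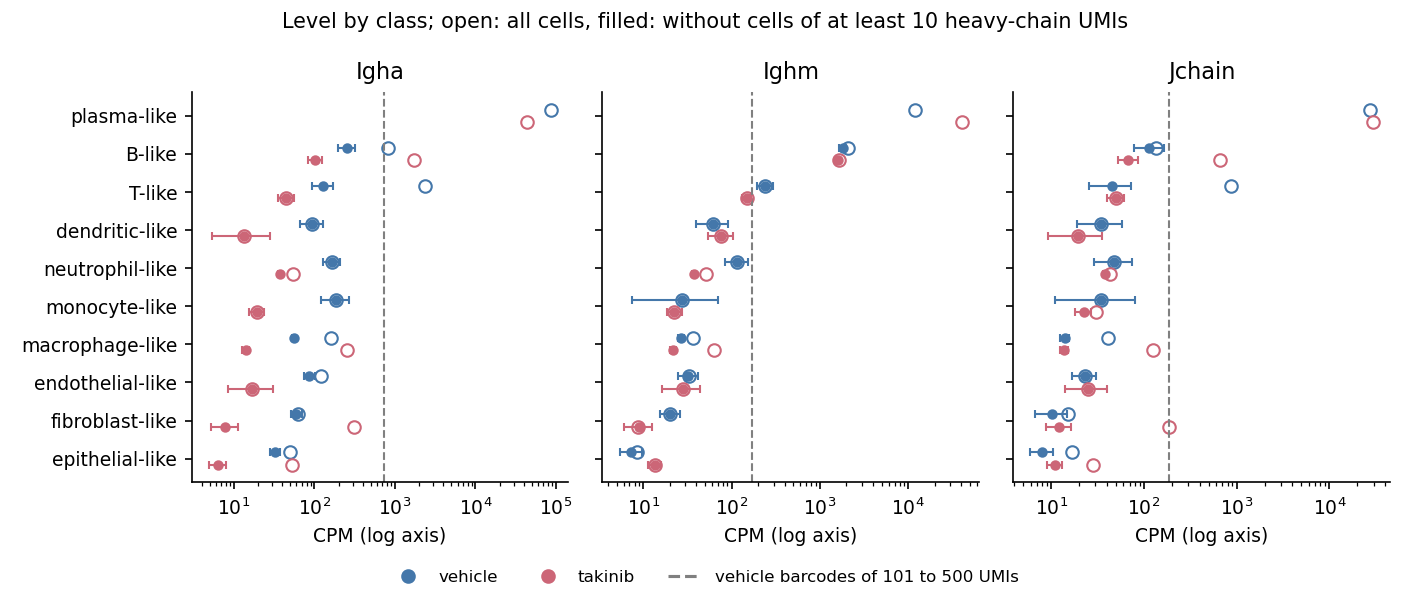
Levels of Igha, Ighm and Jchain (x axis, CPM, log scale) by cell class (y axis) in the vehicle and takinib libraries; open symbols are all cells, filled symbols leave out cells with at least 10 heavy-chain UMIs with Poisson 95% intervals, and the dashed line is the vehicle level in barcodes of over 100 and up to 500 UMIs. The filled Igha symbols outside the B-like and plasma-like classes lie between 32.6 and 185 CPM in vehicle and between 6.28 and 44.6 CPM in takinib, all under the dashed line at 736 CPM.

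Over all kept cells, the share of plasma-like and B-like cells adds to the levels within them, and fewer cells of a type and less RNA per cell cannot be told apart in these sums. Of 15588 genes tested 8.19% were over 2-fold higher and 17.6% over 2-fold lower in takinib, with a median log2 ratio of -0.32. Ighm stood at 98.9 and 532 CPM (log2 ratio 2.43), Ighg3 at 10.4 and 36.1 (1.79), Ighg2c at 28.8 and 78.8 (1.45) and Jchain at 153 and 414 (1.43), 4 of the 8 members over 2-fold higher. Igha stood at 512 and 650 CPM (0.34), Ighd at 10.8 and 15.9 (0.56), Ighg2b at 86.6 and 126 (0.54) and Ighg1 at 64.5 and 48.9 (-0.40), and no member was over 2-fold lower. Of the 4297 takinib Ighg3 UMIs, 789 lay in the cluster led by Gkn2 and 3280 in plasma-like cells.

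The genes closest to each member across 28 points, each a cell class of a library with at least 50 cells, are given as a description of log2 levels over 14006 genes. The points share 2 libraries and their depth. The takinib plasma-like cells were the only plasma-like point, because the 30 vehicle plasma-like cells fell under the limit of 50 cells. How far the values rest on that point was not tested. Ighd lay close to the B cell genes Pax5 (correlation 0.99) and Bank1 (0.98). Ighm lay closest to Gm30211 (0.92), Mzb1 (0.91) and Pou2af1 (0.90). Jchain lay closest to Derl3, Eaf2 and Mzb1 (0.83 each) and Igha to Mzb1 and Eaf2 (0.81 each) and Gm30211 (0.79). The order of likeness thus put Ighd with B cell genes and the other 3 with genes of secreting cells.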

How the data were processed

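Single-cell suspensions of tumours were sequenced as 1 vehicle and 1 takinib library. The authors deposited UMI counts per gene and barcode, unnormalized. Per the file headers the matrices came from Cell Ranger 4 (vehicle) and 6.1.1 (takinib); per the submitters' processing notes Cell Ranger 2.1.1, bcl2fastq, STAR 2.0.4b, Subread, featureCounts 1.45 and mm10 were used. The chemistry is not given in the sources used here. The vehicle file holds 704261 barcodes and 80850334 UMIs, the takinib file 34158 barcodes, each with at least 500 UMIs, and 139292875 UMIs, so the authors' cell filters differed.

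Cells were kept with at least 1000 UMIs and 500 genes and at most 20% mitochondrial UMIs (9872 and 26790). Scrublet (scanpy 1.11.5) marked 293 vehicle doublets; its automatic threshold marked 2 takinib cells, 0.00747%, so the highest-scoring 6%, 1607 cells, were removed there. Counts were clustered (2000 variable genes, 30 components, 15 neighbours, Leiden resolution 1, igraph 0.11.9) without 393 immunoglobulin genes and Jchain, and clusters were named "-like" from marker lists. Calls of a class rest on these rebuilt names. UMIs were summed per class and library, as CPM, counts scaled to 1e+06 UMIs of the class. Intervals are exact Poisson, Clopper-Pearson or conditional binomial at 95%. On simulated counts the ratio intervals held the true value in 96.0% of plasma-like and 96.1% of B-like genes. A share of 0 was bounded by 3 counts. Tested genes had at least 50 counts in a library. Likeness used log2(CPM + 10). Sequences and positions came from GENCODE M21 on GRCm38, the mm10 build; that annotation was matched by gene identifier and need not be the authors' own.

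The genes described are the members, Ighe and all genes of 9 fixed lists with at least 50 counts in B-like or plasma-like cells of a library, and for likeness the 3 nearest genes; others are named as chosen later, and a few results that need withheld items are not reported here. Members and lists were chosen with earlier results of these data known. Alternatives changed the cell, gene and doublet filters, the clustering, the isotype rules, depth and scaling.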

Additional observations from a re-analysis of the deposited data

Results flagged for a closer look

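Barcodes with at least 1000 UMIs that the cell filters left out were not used in the comparisons. In the vehicle library 6 of 3173 such barcodes had at least 10% immunoglobulin UMIs, a signal in data outside the main measurement. Of these, 5 had under 500 genes and 3 over 20% mitochondrial UMIs. Igha led in 5 of them, with 242 to 1094 Igha UMIs, 99.6% to 100% of the heavy-chain UMIs, beside 7 to 21 Jchain UMIs. Ighm led in the remaining barcode, with 93 of 94 heavy-chain UMIs. In the takinib library there were 3 of 2326, all under 500 genes, led by Ighm (176 UMIs), Igha (295) and Ighg2b (299 of 300). Among barcodes that passed the filters, 41 vehicle and 206 takinib barcodes had at least 10% immunoglobulin UMIs.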

How the results depend on the processing

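No paired analysis was possible because each group holds a single library. For the same reason no library could be left out. Each value was recomputed under other settings, and values that moved by more than counting error or turned their sign are given as log2 ratios of takinib over vehicle unless a percent; the cause was not tested. Shares of plasma-like cells kept their order in all settings that gave both libraries (IgA 60.9% to 67.9% in vehicle and 31.8% to 35.2% in takinib, unswitched 3.23% to 7.14% and 44.7% to 47.7%). These ranges leave out the limit to vehicle cells with Xist and no Y-linked UMI. There 2 of 4 vehicle plasma-like cells were IgA, 50% [6.76, 93.2], and 0 were unswitched [0, 60.2]. That IgA interval covers the takinib share. With at least 2000 UMIs and 1000 genes, unswitched B-like cells were 50% and 89.9%; plasma-like Ighm was 2.84, Igha -0.74, Jchain 0.30; B-like Ighm -0.67, Ighd 0.95; Igha outside both classes -0.036. With at most 10% mitochondrial UMIs, unswitched vehicle B-like cells were 64.5%; plasma-like Ighm was 3.06, Jchain 0.025; B-like Ighm 0.19, Ighd 1.32, Igha -0.27; outside both classes Ighm 0.77, Ighd 0.018. Without doublet removal, plasma-like Ighm was 1.68, Igha -1.04, Jchain 0.0045; outside, Ighm 1.28, Igha -0.12, Ighd 0.83. With immunoglobulin genes in the clustering, plasma-like Ighm was 2.12, Igha -1.07, Jchain -0.015; B-like Ighm -0.99; outside, Ighm 0.23, Igha -0.30. With each library clustered alone no vehicle plasma-like cluster formed, so those ratios have no value; B-like Ighm was -0.88, Ighd 0.52, Igha -5.27, Jchain -4.54; outside, Ighm -0.67, Igha -2.04, Jchain -1.03, Ighg1 -1.72, Ighg2b -3.88. Thinned to 1000 UMIs, plasma-like Ighm was 1.599, Igha -1.11, Jchain -0.024; B-like Igha -0.065; outside, Ighm 0.36, Igha -1.005. With vehicle cells limited to those with Xist and no Y-linked UMI, B-like Ighm was 0.015, Ighd 0.95 and Ighg2c outside 2.01, and the 4 plasma-like cells gave no ratio. Unswitched B-like shares were 60.6% and 83.3% at 5 times the heavy-chain UMIs, and 89.7% in vehicle where the leading isotype had to hold 90%. Without the highest cell of each library, plasma-like Ighm was 3.18, Igha -0.92, Jchain 0.15; scaled to non-immunoglobulin UMIs 1.89, -0.87 and 0.21. Chosen after the data were seen: with both B-like clusters joined, B-like Ighd was -0.26; without cells of at least 10 heavy-chain UMIs, outside Ighm was 0.088, Igha -1.43 and Ighg2c 1.06. In vehicle barcodes of 10 to 50 UMIs Igha was 84% of heavy-chain UMIs. The plasma-like IgM and IgA directions held in each setting that gave a value; Jchain there changed sign. Depth limits the 30 vehicle cells, of which 2 are unswitched.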
